A study of Homo sapiens with 14 samples.

Results

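The mitochondrially encoded transcripts are the RNAs copied from the mitochondrial chromosome itself. They were taken as every gene whose symbol starts with MT- in the deposited tables, which gave 37 of 57756 genes: 13 protein-coding genes, 2 rRNA genes and 22 tRNA genes. Each was listed with 1 isoform. The 14 libraries came from A549, a line of human lung carcinoma cells, and formed 7 groups of 2. The groups were untreated cells, an empty vector combined with control siRNA (the control siRNA group), the same vector combined with U2AF1 siRNA (the knockdown group), and knockdown cells that overexpressed U2AF1 isoform v1 or v3 from a virus, each as wild type or with the S34F mutation. A siRNA and a vector were thus present in 12 libraries and absent from the untreated ones, and all 4 groups with a U2AF1 construct also carried the knockdown. U2AF1 is the small subunit of the factor that recognises the 3′ end of introns, and the study asked what its mutation does to splicing. Nothing in the labels says that replicates were separate cultures, so the p-values rest on a spread between libraries that may be purely technical.

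The human mitochondrial chromosome is a small circle present in many copies per cell, and its genes have no introns. Both strands are transcribed by the polymerase POLRMT into long RNAs that span many genes. These are cut at the tRNAs that lie between the other genes, and most of the freed messengers receive a short poly(A) tail. The messengers encode core subunits of respiratory complexes I, III, IV and V, and the rRNAs form the mitochondrial ribosome that translates them.

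Some of these genes share bases with their neighbours, some end without a full stop codon, and MT-CO3 and MT-ND4 do both. How far this affected the assignment of reads was not tested. The sequences below are those of GENCODE release 29 transcripts (GRCh38). The mitochondrial coordinates of the deposited tables, made on GRCh37, were the same for 37 of 37 genes. The end of MT-ATP8 and the start of MT-ATP6, which encode subunits of the ATP synthase, are the same 46 bases (chromosome MT, 8527 to 8572, plus strand), and MT-ND4L and MT-ND4, of complex I, share 7 bases (10760 to 10766). Capitals mark the shared bases in the whole of MT-ATP8, the first 90 bases of MT-ATP6, the last 40 bases of MT-ND4L and the first 40 bases of MT-ND4.
MT-ATP8: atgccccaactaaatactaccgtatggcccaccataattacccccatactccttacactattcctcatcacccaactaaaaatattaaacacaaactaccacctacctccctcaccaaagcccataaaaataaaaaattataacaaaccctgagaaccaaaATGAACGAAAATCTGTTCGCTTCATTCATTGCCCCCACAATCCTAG
MT-ATP6: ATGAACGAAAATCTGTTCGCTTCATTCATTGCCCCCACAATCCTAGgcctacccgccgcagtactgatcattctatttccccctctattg
MT-ND4L: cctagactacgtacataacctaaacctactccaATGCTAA
MT-ND4: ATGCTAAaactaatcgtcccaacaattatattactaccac

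MT-ATP6 and MT-CO3 share 1 base more (9207). The tables give each FPKM, a read density per transcript length and per library size, with a confidence interval. For the 5 genes with such overlaps it reached at least 4.17% to either side in every library and up to 7.51% for MT-ATP8, the shortest coding gene with 207 bases. Among genes that share no base with another coding gene, it reached 0.557 to 0.889% for the long MT-CO1. For the short MT-ND3 it reached 2.19 to 4.39%, so the ranges of the sets overlap, but through MT-ND3 alone. The next widest of that set was MT-ND6, at 2.925% or less in every library.

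In 6 of the 13 coding genes the transcript stops inside its last codon, and the tail added after cutting completes the stop codon. The ends of 4 coding genes are shown, with the stop codon or its part in capitals. MT-CO3 and MT-ND1 are genes whose stop is incomplete, MT-ATP6 has a complete one, and MT-CO1 ends in a codon that most other genomes read as arginine.
MT-CO3: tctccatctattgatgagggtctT
MT-ND1: ctccagcattccccctcaaaccTA
MT-ATP6: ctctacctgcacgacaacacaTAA
MT-CO1: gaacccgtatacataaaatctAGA

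The 22 tRNA genes carry amino acids to the mitochondrial ribosome, and their transcripts are 59 to 75 bases long. Every one of them was listed at 0 in all 14 libraries. The shortest, MT-TS2, a serine tRNA, is shown to give the scale of these RNAs.
MT-TS2: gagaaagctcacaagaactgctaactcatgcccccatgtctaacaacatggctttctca
Short transcripts of other genes were also rarely above 0. Of the 4104 isoforms under 100 bases in the tables, 2 were above 0 in any library, against 99 of 4405 isoforms of 100 to under 150 bases and 2007 of 5107 of 200 to under 300 bases. No comparison was therefore possible for the tRNAs, and the rest of the account concerns the 15 coding and rRNA genes.

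Those 15 genes were among the most abundant RNAs of the cells. The number of them among the 20 isoforms with the highest FPKM was 13 to 15 in 13 libraries and 8 in replicate 2 of the control siRNA group. Their share of each library, taken as FPKM times transcript length, ran from 3.29 to 3.64% in the replicate 1 libraries and from 1.76 to 5.84% in the replicate 2 libraries. Relative depth ranged from 0.814 to 1.22, and absolute depth cannot be had from the tables. U2AF1 stood at 117 to 143 FPKM without its siRNA, 16.2 and 28.9 FPKM in the knockdown, and 2114 to 3852 FPKM with a construct, as the labels say, though FPKM cannot tell the S34F allele or the transgene from the endogenous gene. Of 8 markers of A549 and epithelial cells, KRT8 was at 1174 to 1656 FPKM and ALDH1A1 at 1487 to 2142 FPKM, whereas EPCAM was at 2.20 to 5.53 FPKM. CDKN2A, which A549 cells lack, was at most 0.247 FPKM. The alveolar markers SFTPC and SFTPB were at most 0.394 and 0.547 FPKM and SFTPA1 was listed at 0. Of the markers of other cell types, COL1A1 was at 6.60 to 9.37 FPKM and CD14 at 0.641 to 2.58, and the others found were under 1 FPKM in every library. AL132768.1, a short RNA, made up 33.1% of all FPKM in v1 S34F replicate 2, the library with the highest mitochondrial levels. MIR1260B made up 8.81% in knockdown replicate 1, the highest replicate 1 library in summed FPKM of the mitochondrial coding genes. The part of either RNA in those levels was not tested.

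Levels fell into the same broad order in most libraries, as FPKM, which is per length, and the order followed the complexes in part. The 3 core subunits of cytochrome c oxidase (complex IV) stood at the top, with means of 4834 FPKM for MT-CO3 (SD 1322, n = 14 libraries), 4660 for MT-CO2 (SD 1165) and 4382 for MT-CO1 (SD 1181). Next came MT-ATP8 with 4326 FPKM, MT-ND4 with 4155 and the large rRNA MT-RNR2 with 4051. MT-ND4L followed with 3338 FPKM and MT-ATP6 with 3171, although MT-ATP8 and MT-ATP6 lie on a shared messenger. The other complex I genes and the complex III gene MT-CYB, cytochrome b, lay lower, at 2536 FPKM for MT-ND1, 2352 for MT-ND3, 2275 for MT-CYB, 2216 for MT-ND2, 2046 for MT-ND6 and 1855 for MT-ND5. The small rRNA MT-RNR1 was lowest with 1033 FPKM.

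Neighbours in that order were not always apart. MT-CO1 was above MT-ATP8 in 7 of 14 libraries, and MT-CO3 above MT-CO2, MT-ND4 above MT-RNR2, MT-ND3 above MT-CYB and MT-CYB above MT-ND2 in 10 each. By contrast MT-RNR2 exceeded MT-ND4L, MT-ATP6 exceeded MT-ND1, and MT-ND5 exceeded MT-RNR1 in 14 of 14. MT-ND6 is the only coding gene on the other strand (14149 to 14673, minus strand). Since strand is not stated for the counting, reads of MT-ND6 and of RNA antisense to it cannot be told apart.

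The 2 replicate numbers differed in how much mitochondrial RNA varied between treatments. In the 7 replicate 1 libraries the summed FPKM of the 13 coding genes was nearly level: 36465 in untreated cells, 35959 with control siRNA, 39728 in the knockdown, 37943 with v1 wild type, 38293 with v1 S34F, 37709 with v3 wild type and 38267 with v3 S34F. In the replicate 2 libraries, in the same order, it was 57791, 17287, 36114, 51139, 63249, 48396 and 51695. The highest was 1.10-fold the lowest in replicate 1 and 3.66-fold in replicate 2, and 1.75-fold in replicate 2 without its control siRNA library. Untreated cells and all 4 construct groups were thus higher in replicate 2, the knockdown was slightly lower, and the control siRNA library of replicate 2 was the lowest of the 14.

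**Figure D1:**
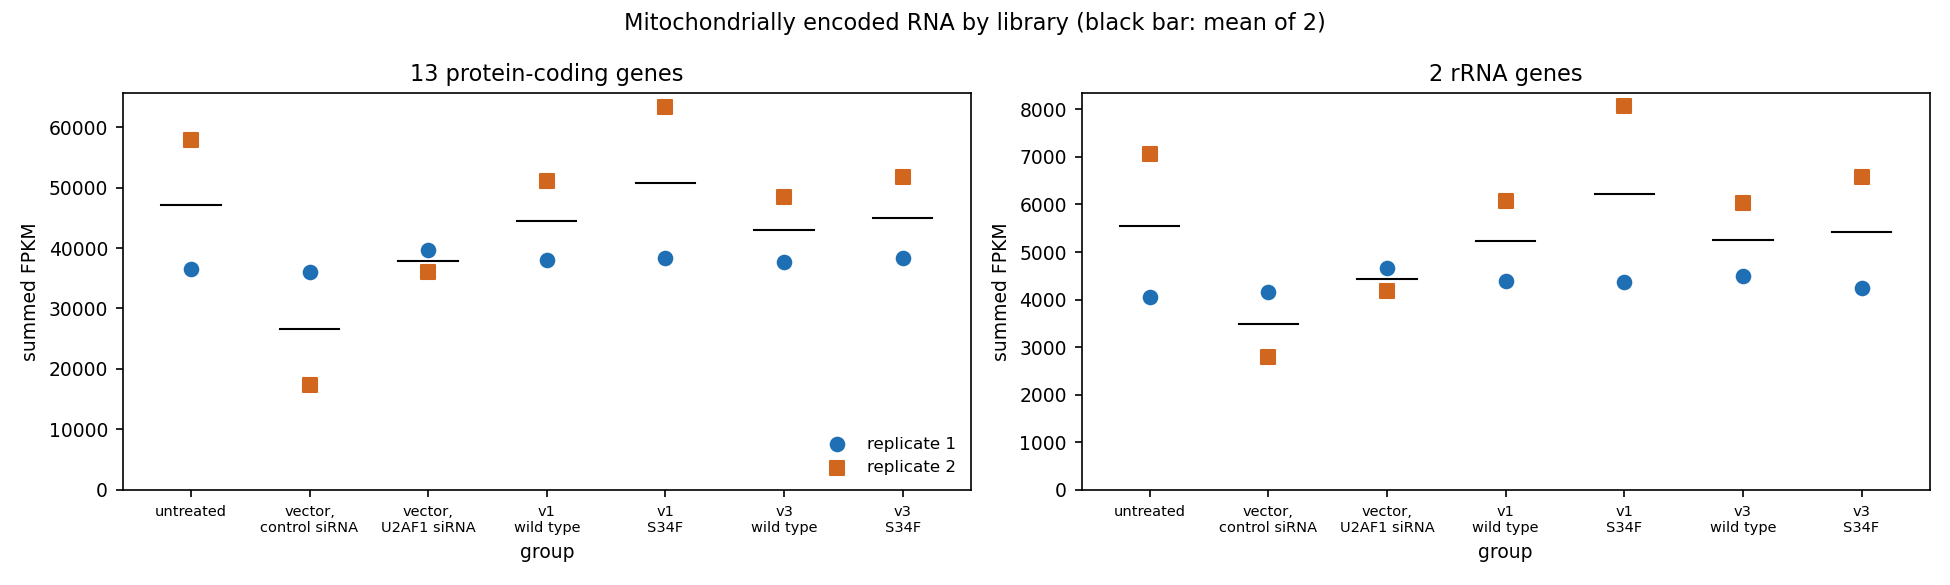
Summed FPKM of the 13 coding genes (left) and the 2 rRNA genes (right) in each of the 7 groups; circles are replicate 1, squares replicate 2 and black bars the mean of the 2. Replicate 1 libraries lie between 35959 and 39728 for the coding genes, whereas replicate 2 libraries run from 17287 to 63249.

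As group means, the coding sum was 47128 ± 15080 FPKM (SD, n = 2) in untreated cells, 26623 ± 13203 with control siRNA, 37921 ± 2556 in the knockdown, 44541 ± 9331 with v1 wild type, 50771 ± 17647 with v1 S34F, 43052 ± 7557 with v3 wild type and 44981 ± 9495 with v3 S34F. The untreated replicates alone, at 36465 and 57791, lay on either side of the means of all other groups except the control siRNA group. FPKM is relative to the rest of the library, so less mitochondrial RNA per cell, fewer cells that hold it and more of the other RNA cannot be told apart in these bulk samples.

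MT-CO3, a core subunit of complex IV, shows the pattern in a single abundant gene. Its FPKM in replicates 1 and 2 was 4078 and 6643 in untreated cells, 3928 and 2358 with control siRNA, 4373 and 4143 in the knockdown, 4215 and 5753 with v1 wild type, 4307 and 7434 with v1 S34F, 4235 and 5682 with v3 wild type, and 4388 and 6137 with v3 S34F. MT-ND3, a small membrane subunit of complex I, had the widest range in replicate 2. Its FPKM was 1784 and 3516 in untreated cells, 1973 and 741.8 with control siRNA, 2065 and 2092 in the knockdown, 2112 and 3041 with v1 wild type, 2092 and 3586 with v1 S34F, 2122 and 2784 with v3 wild type, and 2139 and 2876 with v3 S34F. In both genes the control siRNA library of replicate 2 was the lowest of the 14 and the v1 S34F library of replicate 2 the highest.

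MT-ND6, annotated on the other strand, was also lowest with control siRNA and highest with v1 S34F, both in replicate 2. Its FPKM in replicates 1 and 2 was 1675 and 2919 in untreated cells, 1730 and 805.9 with control siRNA, 1883 and 1930 in the knockdown, 1801 and 2713 with v1 wild type, 1816 and 3068 with v1 S34F, 1775 and 2325 with v3 wild type, and 1736 and 2462 with v3 S34F. In the knockdown MT-ND6 and MT-ND3 were slightly higher in replicate 2, unlike the other 11 coding genes. Over the 15 measured genes, control siRNA replicate 2 was the lowest library in 15 and v1 S34F replicate 2 the highest in 15.

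The rRNAs moved in the same direction as the messengers but with another range. MT-RNR2, the large subunit rRNA, had FPKM of 3259 and 5581 in untreated cells, 3332 and 2360 with control siRNA, 3671 and 3375 in the knockdown, 3534 and 4814 with v1 wild type, 3512 and 6287 with v1 S34F, 3588 and 4775 with v3 wild type, and 3485 and 5140 with v3 S34F. Its 2.66-fold range in replicate 2 was the smallest of the 15 genes, against 4.83-fold for MT-ND3. MT-RNR1, the small subunit rRNA, ranged from 757.3 to 993.8 FPKM in replicate 1 and from 432.9 to 1780 in replicate 2. Against the coding sum, the 2 rRNAs together came to 11.1 to 12.8% in 13 libraries and to 16.2% in control siRNA replicate 2.

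**Figure D2:**
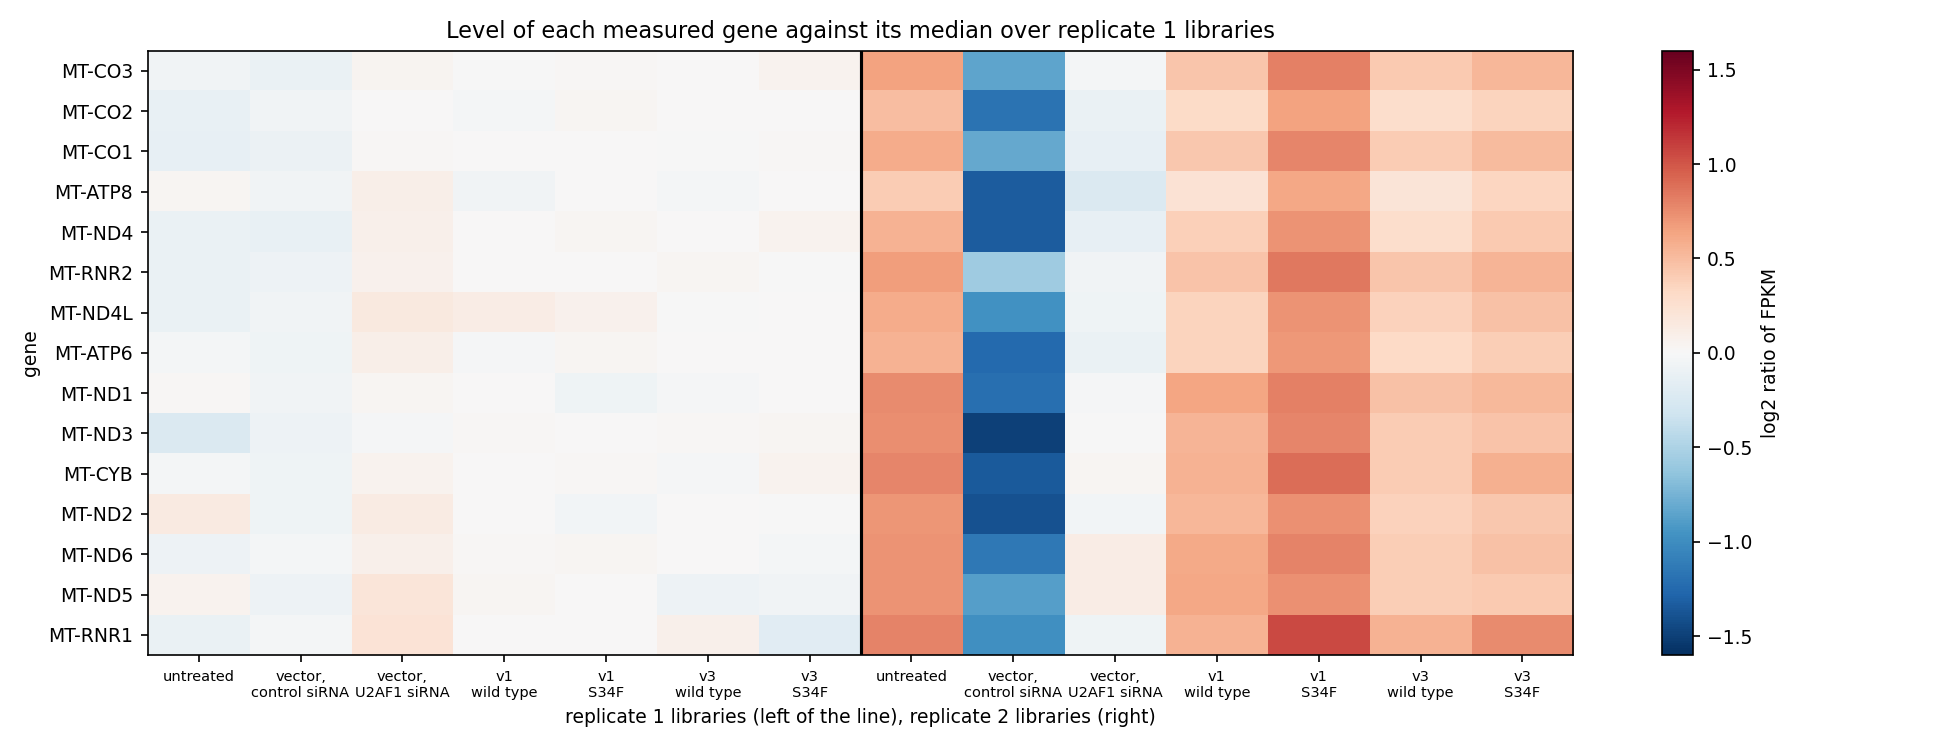
Level of each of the 15 measured genes in each library, as the log2 ratio of its FPKM to its median over the 7 replicate 1 libraries; replicate 1 libraries are left of the line and replicate 2 libraries right of it. The left side is nearly white, and on the right the control siRNA library is low and 5 other groups are high in every gene.

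Taken gene by gene on the scale of log2(FPKM + 1), the coding genes differed between the replicates of a group by a median of 0.69 in untreated cells, -1.15 with control siRNA, -0.11 in the knockdown, 0.45 with v1 wild type, 0.76 with v1 S34F, 0.39 with v3 wild type and 0.47 with v3 S34F (replicate 2 minus replicate 1). All 13 coding genes were higher in replicate 2 in 5 groups, 2 of 13 in the knockdown, and 0 of 13 with control siRNA. The median over all 14233 genes tested lay between -0.040 and 0.040 in each group.

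The spread across treatments was then measured for each gene as the SD of log2(FPKM + 1) over the 7 libraries of 1 replicate number. Among the 15 genes it ran from 0.037 (MT-ND1) to 0.13 (MT-RNR1) in replicate 1, with a median of 0.059. In replicate 2 it ran from 0.49 (MT-RNR2) to 0.79 (MT-ND3), with a median of 0.66. The ratio of the 2 SDs had a median of 9.32 and was largest for MT-ND1, at 19.2, and smallest for MT-RNR1, at 5.48. Over all 14233 genes the medians were 0.18 and 0.24 and the median ratio 1.31, and 72.9% of genes varied more in replicate 2. The 15 genes ranked between 19 and 76 in that ratio.

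Other abundant genes did not show such a gap: the 156 nuclear genes with a mean of at least 500 FPKM had median SDs of 0.13 and 0.14. Without the control siRNA group, an alternative chosen after seeing the data, the medians of the 15 genes were 0.058 and 0.28 and their median ratio 4.94. All 15 still varied more in replicate 2, as did 68.0% of all genes, but 7 rather than 15 lay among the 100 highest ratios. The median SD of the 15 then exceeded that of 65.2% of all genes in replicate 2 and of 2.87% in replicate 1. With all 7 groups these shares were 96.7% and 1.92%. Without the v1 S34F group as well, the median ratio was 4.28 and 3 lay among the 100 highest.

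**Figure D3:**
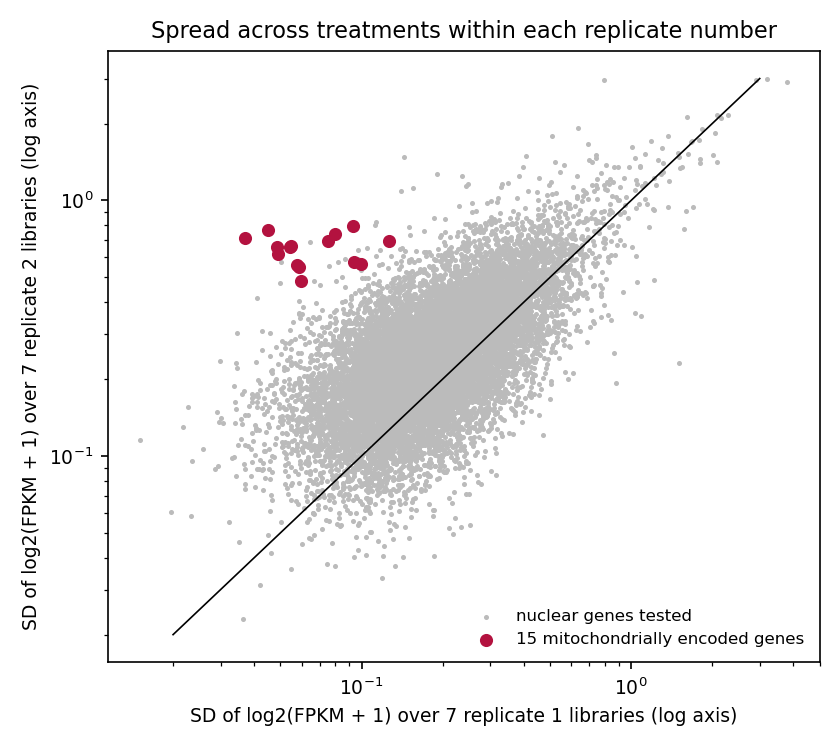
SD of log2(FPKM + 1) across the 7 treatments in replicate 1 (x axis) and replicate 2 (y axis), both log axes; grey points are the nuclear genes tested, red points the 15 mitochondrially encoded genes, and the line marks equal SDs. The red points lie at 0.037 to 0.13 on the x axis and 0.49 to 0.79 on the y axis, all above the line.

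The make-up of the mitochondrial RNA was also different in control siRNA replicate 2, beyond its low amount. As a percent of the library's summed coding FPKM, 10 of the 15 genes lay outside the range of the other 13 libraries there, against at most 5 genes in any other library. Complex IV genes took more of the sum: MT-CO1 was at 12.9% (9.81 to 10.7% in the others) and MT-CO3 at 13.6% (10.9 to 11.9%), while MT-CO2, at 11.1%, was inside its range. MT-RNR2 stood at 13.7% of the coding sum against 8.94 to 9.94%.

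Of the 7 complex I genes 3 took less, 2 took more and 2 were inside their ranges, and the complex III gene took less. Coding genes and complexes are parts of the same sum here, so higher shares of some entail lower shares of others. MT-ND2 was at 4.33% (4.98 to 5.91% in the others), MT-ND3 at 4.29% (4.89 to 6.08%), MT-ND4 at 8.74% (9.58 to 10.3%), MT-CYB at 4.45% (5.13 to 5.80%) and MT-ATP6 at 7.08% (7.30 to 7.81%). MT-ND4L at 8.80% and MT-ND5 at 5.05% were above their ranges of 7.48 to 8.49% and 4.02 to 4.84%, whereas MT-ND1, MT-ND6, MT-ATP8 and MT-RNR1 were inside theirs. By complex, the shares in this library were 41.4% for complex I, 4.45% for complex III, 37.6% for complex IV and 16.5% for complex V, and each was outside the range of the others (43.1 to 45.5%, 5.13 to 5.80%, 31.9 to 33.4% and 16.7 to 19.3%).

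**Figure D4:**
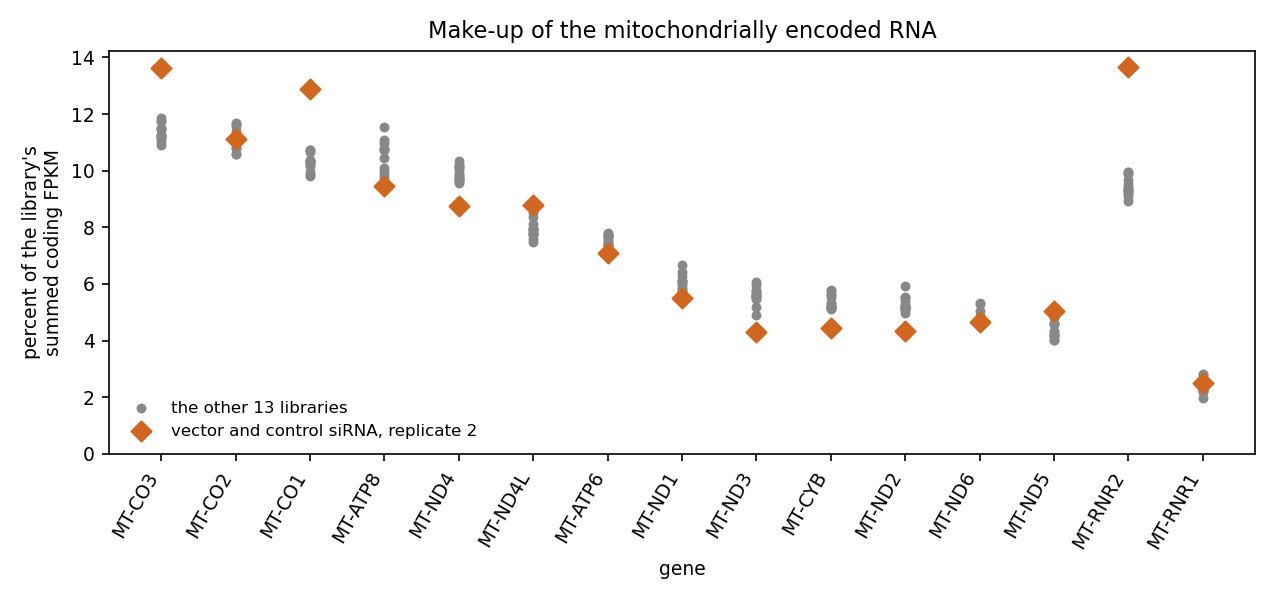
Each gene as a percent of the library's summed coding FPKM; diamonds are control siRNA replicate 2 and grey points the other 13 libraries. MT-CO3, MT-CO1 and MT-RNR2 lie above the grey points, and MT-ND3, MT-CYB, MT-ND2 and MT-ND4 below them.

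The difference between the control siRNA libraries was unequal between genes. From replicate 1 to replicate 2 of the control siRNA group, MT-RNR2 differed by -0.50, MT-CO1 by -0.72 and MT-CO3 by -0.74 on the log2 scale, whereas MT-ND2 differed by -1.32 and MT-ND3 by -1.41. A sum over 10 RNAs taken as lacking a poly(A) tail or staying in the nucleus also differed by replicate number. Whether each of them did so in these cells was not tested. Most of it was NEAT1 (mean 259.7 FPKM), and 4 of the 10 had means under 1 FPKM. The sum was 262 to 421 in replicate 1 and 372 to 661 in replicate 2, higher in replicate 2 in 7 of 7 groups, but of the 6 members tested only 3 were higher in untreated cells and 4 or 5 in each other group. With control siRNA it went from 276 to 480 while the mitochondrial coding sum went from 35959 to 17287, and its part in the mitochondrial levels was not tested.

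Tests between groups used limma on log2(FPKM + 1) with a mean for each group. The first comparison asked what vector and control siRNA did to untreated cells. All 15 genes had lower means with control siRNA (13 of 15 after quantile normalization, where MT-CO2 and MT-RNR2 were higher), and the median difference of the coding genes was -0.92. None passed an adjusted p of 0.05 (0.927 to 0.977 over the 15), in a comparison where limma called 0% of all genes and 730 genes, or 5.13%, had an unadjusted p under 0.05. At that unadjusted level 12 of the 15 passed (4 without a filter on low values), all lower, where 2.61% of all genes did so in that direction. The 15 genes moved together across libraries, so these are not 12 separate results. MT-ND2, a membrane subunit of complex I, had 2157 and 3184 FPKM in untreated cells and 1868 and 747.9 with control siRNA, a difference of -1.15 (SE 0.40, adjusted p 0.927). Within replicate 1 the coding median was -0.030 and 7 of 15 genes were above 0, while within replicate 2 it was -1.80 and 0 of 15 were. Of all genes 41.5% and 50.4% were above 0.

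Next, the knockdown was compared with the control siRNA group, which carries the same vector. The means of 15 of 15 genes (13 after quantile normalization) were higher in the knockdown, by a coding median of 0.64, and 0 passed (adjusted p 0.329 to 0.658), against 2.85% of all genes. At an unadjusted p under 0.05, 0 of 15 passed, where 18.9% of all genes did. MT-CYB had 1869 and 769.7 FPKM with control siRNA and 2038 and 2005 in the knockdown, a difference of 0.75 (SE 0.43, adjusted p 0.380). Both knockdown values of MT-CYB were above both control values, close to the first of them and far above the second. Within replicate 1 the coding median was 0.16, within replicate 2 it was 1.14, and 15 of 15 genes were above 0 in each. Of all genes 50.7% and 46.5% were above 0, and each value compares 1 library with 1 other. Without control siRNA replicate 2 the median of the fit was 0.088.

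Wild-type constructs, averaged over v1 and v3, were compared with the knockdown and with the control siRNA group. Against the knockdown the coding median was 0.19 with 15 of 15 means higher (11 after quantile normalization) and 0 passing (adjusted p 0.695 to 0.922), where 1.43% of all genes were called. It was -0.075 within replicate 1 and 0.45 within replicate 2, so the direction was not shared. An unadjusted p under 0.05 was reached by 0 of 15, where 15.8% of all genes had one. Against control siRNA the coding median was 0.82 with 15 of 15 means higher (14 after quantile normalization) and 0 passing (adjusted p 0.254 to 0.425), where 0.436% of all genes were called. This median was 0.060 within replicate 1 and 1.58 within replicate 2, with 15 of 15 genes above 0 in each. Of all genes 51.36% and 52.35% were above 0. Here 13 of 15 had an unadjusted p under 0.05 (6 without a filter on low values), all higher. Of all genes 13.6% had one, and 6.67% in that direction. MT-ND4, a core subunit of complex I, had the smallest adjusted p, with a difference of 0.89 (SE 0.32, adjusted p 0.254). Its FPKM was 3524 and 1512 with control siRNA, 3816 and 4967 with v1 wild type, and 3816 and 4636 with v3 wild type. This comparison and the knockdown comparison share the control siRNA libraries. Without control siRNA replicate 2 the coding median was 0.29, in a fit that kept the wild-type libraries of both replicate numbers.

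The S34F mutation was set against wild type within the constructs. The coding median was 0.11 with 15 of 15 means higher, but -0.017 with 4 of 15 higher after quantile normalization, and 0 genes passed (adjusted p 0.833 to 0.974), where 1.85% of all genes were called. An unadjusted p under 0.05 was also reached by 0 of 15, against 15.9% of all genes. MT-ATP8, a small membrane subunit of ATP synthase, had 3959 and 4825 FPKM with v1 wild type and 4047 and 4771 with v3 wild type. With S34F it had 4128 and 6323 FPKM (v1) and 4118 and 5218 (v3), a difference of 0.15 (SE 0.25, adjusted p 0.833). The coding median was 0.012 within replicate 1, with 7 of 15 genes above 0, and 0.21 within replicate 2, with 15 of 15. Of all genes 53.4% and 54.7% were above 0. The coding median was -0.069 without v1 S34F replicate 2 and -0.0045 without v3 S34F replicate 2. For the difference of the S34F effect between v1 and v3, 0 of 15 genes passed (adjusted p 1, median 0.093, or -0.077 after quantile normalization). In that comparison limma called 0% of all genes, and 101 genes, or 0.71%, had an unadjusted p under 0.05, 0 of the 15 among them. Its median was -0.27 without v1 S34F replicate 2.

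**Figure D5:**
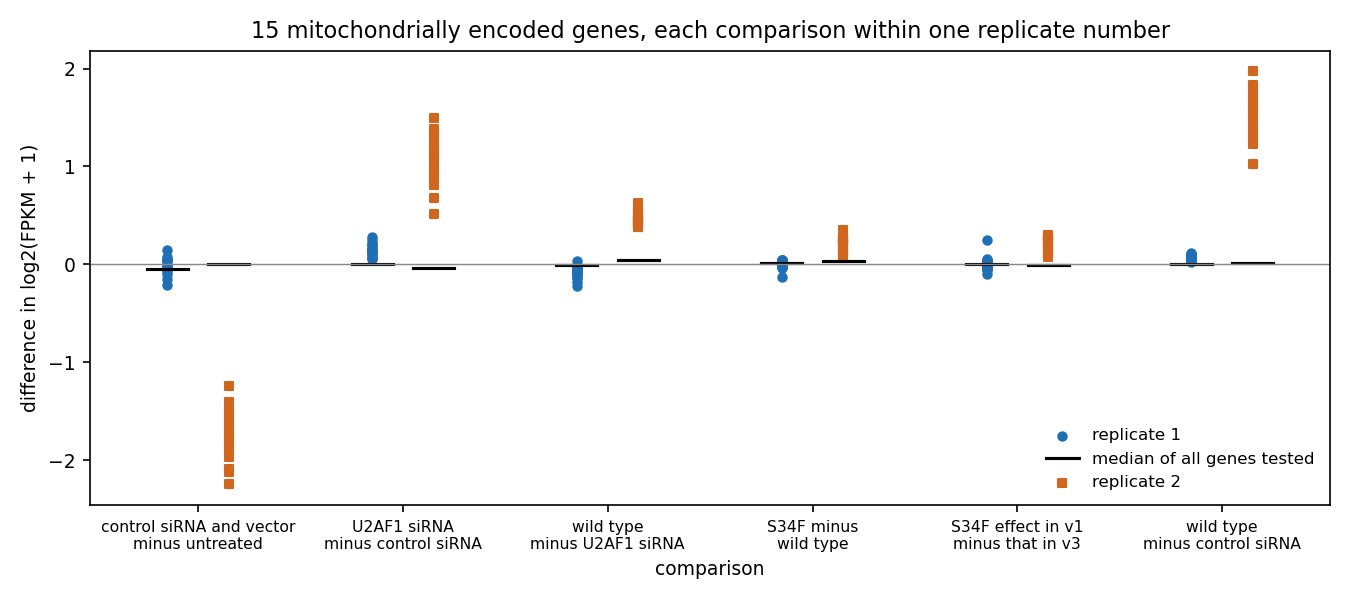
Difference in log2(FPKM + 1) of each of the 15 genes in the 6 comparisons, computed within replicate 1 (circles) and within replicate 2 (squares); black bars are the median of all genes tested. Circles lie between -0.22 and 0.28, and squares reach -2.24 and 1.97 in comparisons that use the control siRNA library of replicate 2.

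Close copies of mitochondrial genes lie in the nuclear genome, and reads can be split between them and the true genes. Of 400 such copies listed, 6 had a mean of at least 1 FPKM, and all 6 lie in 1 stretch of chromosome 1 (GRCh37, 564442 to 570302). MTATP6P1 had a mean of 400.4 FPKM, 11.7 to 14.5% of MT-ATP6, and is 98.5% identical to it over 681 bases. MTCO1P12, listed in the tables under another symbol and matched here by its Ensembl identifier, had 300.6 FPKM, 6.36 to 7.47% of MT-CO1. MTND2P28 had 260.7 FPKM, 10.7 to 12.8% of MT-ND2, and MTND1P23 had 64.1 FPKM, 2.11 to 3.05% of MT-ND1. MTCO3P12 and MTCO2P12 were at 9.64 and 1.84 FPKM.

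MT-ND2 and its copy are 98.4% identical over 1042 bases, with 17 differences. The 90 bases shown (positions 433 to 522 of each transcript) were picked as a stretch with the most differences, so most of the pair is more alike. Capitals mark the 5 positions where they differ, and 266 bases is the longest run without a difference.
MT-ND2: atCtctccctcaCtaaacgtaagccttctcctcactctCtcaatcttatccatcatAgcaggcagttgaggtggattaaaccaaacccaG
MTND2P28: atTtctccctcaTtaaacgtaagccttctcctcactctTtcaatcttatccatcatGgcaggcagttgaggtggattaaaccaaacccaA
MTND2P28 had 249 and 409 FPKM in untreated cells, 206.7 and 81.3 with control siRNA, 249 and 229 in the knockdown, and 215 and 384 with v1 S34F. The low library of MT-ND2 was thus also the low one of its copy, as it was for all 6 copies. How many of the reads under these copies come from the mitochondrial chromosome was not tested, and the FPKM of MT-ND1, MT-ND2, MT-CO1 and MT-ATP6 is uncertain to that extent.

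Nuclear genes that serve the mitochondrial chromosome were read from the same fits. Of 9 genes of mitochondrial transcription, among them the polymerase POLRMT (24.6 to 41.5 FPKM) and the packaging factor TFAM (67.2 to 83.0 FPKM), 0 passed in any of the 6 comparisons. Of 11 genes of mitochondrial DNA replication and nucleotide supply, led by the single-strand binding protein SSBP1 (205 to 283 FPKM) and the kinase DGUOK (73.0 to 108 FPKM), 0 passed. Of the 5 biogenesis regulators tested, led by PPRC1 (29.5 to 45.1 FPKM) and ESRRA (20.7 to 29.4 FPKM), 0 passed. Of all genes 0 to 2.85% were called in these comparisons, so 0 calls in lists this short say little about their genes. With the replicate number as a block, 7.98% of all genes passed with S34F (466 of 14233 higher and 670 lower). There 1 of 9 transcription genes was lower, and of 11 replication genes 1 was higher and 2 lower. Of the replication genes 1 was also lower in the knockdown (11.8% of all genes passed). With wild type 1 was higher against the knockdown (7.52%) and 1 against control siRNA (3.84%).

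Among 19 genes of mitochondrial RNA processing and decay, 2 fell with S34F, where 1.27% of all genes were called lower. With the block 2 of the 19 were lower and 0 higher, where 7.98% of all genes passed, 466 of 14233 higher and 670 lower. PNPT1, the exonuclease of the mitochondrial RNA decay complex, had 44.9 and 46.6 FPKM with v1 wild type and 45.2 and 41.98 with v3 wild type. It had 24.6 and 23.8 with v1 S34F and 28.2 and 27.6 with v3 S34F, so that the 4 S34F libraries lay below the 4 wild-type ones (difference -0.76, SE 0.089, adjusted p 0.0032). GRSF1, an RNA-binding protein of the mitochondrial RNA granule, went from 76.8 and 77.7 (v1) and 81.1 and 73.7 (v3) to 52.7 and 42.6 and to 56.8 and 41.6 (difference -0.68, SE 0.11, adjusted p 0.015). PNPT1 was called in 8 of 8 fits that left out a library and GRSF1 in 2 of 8, with adjusted p up to 0.073. In the same libraries the mitochondrial transcripts did not pass, and their median difference was 0.11.

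In the knockdown, where 0.787% of all genes were called higher, 1 of the 19 rose. TRMT10C, a subunit of the enzyme that cuts the 5′ ends of mitochondrial tRNAs, had 32.3 and 29.4 FPKM with control siRNA and 48.7 and 45.5 in the knockdown (difference 0.60, SE 0.13, adjusted p 0.033). It was called in 0 of 4 fits that left out a library and in 4 of 6 other settings (adjusted p up to 0.053). With the block, 3 of the 19 were higher and 1 lower in the knockdown, where 11.8% of all genes passed, and 1 was higher and 1 lower with wild type against the knockdown, where 7.52% passed.

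Of the 76 nuclear subunits of the respiratory complexes, the partners of the mitochondrial messengers' products, 0 passed in any comparison (all genes: 0 to 2.85%). Among the most abundant were the ATP synthase subunits ATP5B (548 to 659 FPKM) and ATP5J2 (355 to 545 FPKM), and the summed FPKM of the list ranged from 10850 to 13225. In the knockdown 55 of 76 had higher means, with a median of 0.14, against a median of -0.011 over all genes. With the block 5 of 76 passed in the knockdown, all higher. Of all genes 11.8% passed in either direction, 668 of 14233 higher and 1013 lower. With wild type against the knockdown 1 of 76 passed with the block, and it was lower, where 7.52% of all genes passed. Between replicates of the control siRNA group the nuclear subunits differed by a median of -0.10, where the mitochondrial coding genes differed by -1.15. Between those of v1 S34F they differed by -0.26, with 8 of 76 higher in replicate 2, where 13 of 13 mitochondrial coding genes were higher.

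Of 76 mitochondrial ribosomal protein genes, which build the ribosome around MT-RNR1 and MT-RNR2, 3 rose in the knockdown, where 0.787% of all genes were called higher: MRPL32 (0.64, adjusted p 0.017), MRPS18C (0.82, adjusted p 0.019) and MRPS35 (0.48, adjusted p 0.037). Against the knockdown, 1.43% of all genes were called with wild-type constructs, 1.04% higher and 0.386% lower. There 1 of the 76 was higher, MRPL21 (0.52, adjusted p 0.025), and 1 lower, MRPS18C (-0.58, adjusted p 0.049). With S34F, where 1.27% of all genes were called lower, 1 of the 76, MRPL46, fell (-0.36, adjusted p 0.031), a share close to that of all genes. With the block, 13 were higher and 1 lower in the knockdown (11.8% of all genes passed, 668 of 14233 higher and 1013 lower). With wild type 2 were higher and 6 lower (7.52%, 707 higher and 363 lower). With S34F 5 were lower (7.98%, 466 higher and 670 lower). None of the 6 calls held in all fits that left out a library: MRPL32, MRPS18C in the knockdown and MRPL21 held in 1 fit each, MRPL46 in 2, and the other two in 0. Over the 6 other settings, MRPS18C against the knockdown held in 2 (adjusted p up to 0.081), MRPS35 in 4 (up to 0.085), MRPL21 and MRPL46 in 5 each (up to 0.055 and 0.060), and the other two in 6.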

How the data were processed

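Per the file headers, each deposited table lists 195553 isoforms with an FPKM, its confidence bounds and a status, and with a coverage value per isoform made by the authors' quantifier. The submitters' processing notes name Trimmomatic 0.30, TopHat2 2.0.12 and the build GRCh37. Not given in the sources used here are the quantifier, the annotation, the library type and any scaling between libraries. Coverage divided by FPKM gave the relative depth.

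Gene FPKM was the sum over isoforms. Genes with a mean of at least 1 FPKM and every estimate marked OK (14233 genes, 15 of them mitochondrially encoded) entered limma 3.58.1 (R 4.3.3, intensity trend, 7 group means over all 14 libraries, 7 residual and 3.92 prior degrees of freedom) as log2(FPKM + 1). Fold changes are on that scale, which understates those of low genes. Benjamini-Hochberg adjustment ran over all genes tested, and an adjusted p under 0.05 was called. The code was tested on simulated data.

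Samples with the same replicate number deviated together: in 21 of 21 pairs of groups the replicate differences were correlated across genes (0.16 to 0.57), so a fit with the replicate number as a block was an alternative. Others were a pseudocount of 0.1, no filter, upper quartile scaling, quantile normalization, no trend and leaving out each library. All coding and rRNA genes are named, nuclear genes where called or, with no call in a list, the 2 most abundant. The members, the lists and the tests were chosen with earlier results of these data known. Names of the nuclear copies came from GENCODE release 29 by identifier, a choice made after seeing the files, and identity was computed with Biopython 1.88.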

Additional observations from a re-analysis of the deposited data

How the results depend on the processing

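No mitochondrially encoded gene passed in any of 72 alternative fits. The replicate block, with which the lowest adjusted p of a member was 0.12, left that count at 0 in all 6 comparisons, while calls among all genes went from 405 to 1681 for the knockdown, 203 to 1070 for wild type against it, 264 to 1136 for S34F, 62 to 547 for wild type against control siRNA and 0 to 2 for vector against untreated. Without a filter on low values, calls were 19, 241, 141, 228, 15 and 52 in the order vector, knockdown, wild type against knockdown, S34F, v1 against v3, and wild type against control siRNA. Leaving out 1 library moved the coding median between -1.51 and -0.34 for vector against untreated, 0.088 and 1.24 for the knockdown, and 0.29 and 1.41 for wild type against control siRNA, with the control siRNA libraries at both ends of each range. For wild type against the knockdown it ran from 0.095 to 0.30, for S34F from -0.069 to 0.27, and for v1 against v3 from -0.27 to 0.46. The highest over the lowest coding sum in replicate 2 ran from 1.75 to 3.66. The median SD ratio was 4.94 without the control siRNA group and 4.28 without v1 S34F as well, both chosen after seeing the data.

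Of 90 single-gene differences, none of them called, 30 changed sign with quantile normalization and 0 with each of the other 5 settings, as did 97 of 540 when a library was left out. The lowest adjusted p over all alternatives was 0.057. Quantile normalization, which forces the most abundant genes of every library to the same values, gave a median of -0.017 for S34F. With 2 libraries a group, and absolute depth unknown, differences of this size within 1 group limit what a comparison of means can show.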
